A study of Mus musculus with 36 samples.

Results

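The DFMO response of pathogenic Th17 cells (Th17p) was compared with the DFMO response of induced regulatory T cells (iTreg), in CD4 T cells of mice differentiated in culture. The comparison takes 24 of the 36 sequenced samples, which are 12 of the 18 libraries and 4 of the 6 groups of the study, each library having been sequenced in 2 runs that were summed. For every gene the change with DFMO in iTreg cells was subtracted from the change with DFMO in Th17p cells, so the comparison asks which genes respond to the same inhibitor differently in the 2 lineages. Naive CD4 T cells (CD44- CD62L+ CD25-) were sorted from spleens of C57BL/6 mice, all labelled WT (wild type), and activated through CD3 and CD28. The cytokines for Th17p cells were IL-6 (25 ng/ml), IL-1b (20 ng/ml) and IL-23 (20 ng/ml), together with either 100 µM DFMO or vehicle. For iTreg cells TGF-beta 1 (2 ng/ml) was given without IL-6, again with either 100 µM DFMO or vehicle. All cultures ended at 68 h, when living cells were sorted for libraries that cover the full length of transcripts. A group consists of 3 libraries, and the same 3 animals supplied all groups. The remaining groups of the study, non-pathogenic Th17 cells (Th17n, given 25 ng/ml IL-6 and 2 ng/ml TGF-beta 1) with DFMO and with vehicle, entered the fit of the spread and are given here only beside the genes described.

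DFMO (difluoromethylornithine) blocks ornithine decarboxylase, the enzyme encoded by Odc1 that makes putrescine from ornithine and so begins polyamine synthesis. Putrescine is built up to spermidine and spermine with aminopropyl groups from decarboxylated S-adenosylmethionine, which the enzyme encoded by Amd1 supplies, and cells sense polyamine shortage through antizyme, whose translation depends on polyamines and which sends ornithine decarboxylase to the proteasome. Spermidine is also the donor for hypusine, a modified lysine found on the translation factor Eif5a. Th17 cells are helper T cells that make IL-17, and iTreg cells are suppressive T cells that depend on Foxp3. Each lineage is driven by different cytokines here, IL-6 signalling through STAT3 in Th17p cells and TGF-beta in iTreg cells.

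The libraries held 8307633 to 13986923 estimated counts each, and the groups' depths overlapped. The study's lineage markers stood where the labels put them. Foxp3 had 2.35, 0.917 and 3.06 CPM in Th17p cells with DFMO, 0.881, 0 and 1.47 CPM in Th17p cells with vehicle, 483, 476 and 274 CPM in iTreg cells with DFMO and 516, 397 and 393 CPM in iTreg cells with vehicle, and Il17f had 174, 188 and 117 CPM in Th17p cells with DFMO, 1540, 1350 and 1370 CPM in Th17p cells with vehicle, 4.47, 13.9 and 2.71 CPM in iTreg cells with DFMO and 1.83, 0.644 and 1.60 CPM in iTreg cells with vehicle. Summed markers of T cells lay between 3159 and 4113 CPM in all 12 libraries. Markers of B cells summed to 24.9 to 32.5 CPM in Th17p cells with DFMO, 39.2 to 47.9 CPM in Th17p cells with vehicle, 36.4 to 44.1 CPM in iTreg cells with DFMO and 74.0 to 108 CPM in iTreg cells with vehicle. In Th17p cells most of that sum came from Ebf1, which averaged 20.5 CPM with DFMO and 25.5 CPM with vehicle. Cd74, which activated T cells also express, averaged 6.88 and 12.2 CPM there. In iTreg cells most of the sum came from Cd74, at 20.6 CPM with DFMO and 81.9 CPM with vehicle, and from Cd79b, at 17.1 and 13.7 CPM. Ebf1 averaged 0.508 and 0.176 CPM in iTreg cells. Of 15 myeloid markers found in the table, 8 were at 0 in all 12 libraries, among them Lyz2, S100a8, Itgax and C1qa. The 15 markers summed to 97.6 to 111 CPM in Th17p cells with DFMO, 114 to 132 CPM in Th17p cells with vehicle, 80.5 to 95.7 CPM in iTreg cells with DFMO and 90.7 to 108 CPM in iTreg cells with vehicle, most of it from Cst3, which many cell types express and which averaged 103 CPM in Th17p cells with DFMO, 116 CPM in Th17p cells with vehicle, 86.1 CPM in iTreg cells with DFMO and 95.2 CPM in iTreg cells with vehicle. Mpeg1 had summed counts of 0 in Th17p cells with DFMO, 3 in Th17p cells with vehicle, 10 in iTreg cells with DFMO and 128 in iTreg cells with vehicle. Markers of NK cells summed to at most 3.63 CPM in any library. The part of other cell types in the results was not tested. In bulk RNA, fewer cells of a type and less RNA per cell cannot be told apart.

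Most genes that DFMO changed in both lineages moved the same way, and a minority of genes responded differently. Below, a DFMO response is the log2 fold change of DFMO over vehicle in 1 lineage, and the response difference is the response in Th17p cells minus that in iTreg cells, each with its standard error (SE) from edgeR's quasi-likelihood test over 3 animals per group. Levels are CPM, that is, counts after each library is scaled to the same size, listed in the order of animals 1, 2 and 3 or as mean ± SD. Called genes have an adjusted p (Benjamini-Hochberg over 11526 genes tested) under 0.05. DFMO changed 3797 genes in Th17p cells (32.9%), of which 1827 rose (15.9%) and 1970 fell (17.1%), and 4329 genes in iTreg cells (37.6%), of which 2112 rose (18.3%) and 2217 fell (19.2%). The response difference was called for 789 genes (6.85%), with 383 higher in Th17p (3.32%) and 406 lower (3.52%). When the animal was added to the fit as a block, 1237 genes were called, 637 higher and 600 lower. Without animal 2 the count was 107, without animal 1 it was 386 and without animal 3 it was 564. The split between higher and lower calls depended on the scaling, since 72.2% of calls were higher without scaling factors and 80.4% on log2(TPM + 1), against 48.5% with the scaling used here. The p values rest on the spread of libraries within groups, over all 18 libraries and with no animal term. They cover these 3 animals only and do not measure how the response difference varies from animal to animal. Other settings are given below where they end the call of a gene or clearly move the count of a list, which is then written as the called members higher and lower. They include fits of the 12 libraries alone, with no scaling factors, without the filter on low counts, of 1 sequencing run, or on log2(TPM + 1). Shares of list members called for the response difference are to be read beside the 6.85% of all genes.

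A response difference can arise from unlike sizes as well as from unlike directions, and both were present among the 789 genes. DFMO changed 105 of them (13.3%) in both lineages in opposite directions. Of these, 33 rose in Th17p and fell in iTreg cells, and 72 fell in Th17p and rose in iTreg cells. A further 123 (15.6%) changed in the same direction in both, and in 100 of those the larger change was in iTreg cells, against 23 with the larger change in Th17p cells. The change was called in Th17p cells alone for 231 genes (29.3%) and in iTreg cells alone for 325 (41.2%), and in neither for 5. Over all genes, 2311 were called in both lineages and 2206 of those moved the same way. The responses of the 2 lineages had a Pearson r of 0.45 across the 11526 genes, which describes separate libraries of the same animals, and genes are not independent of each other.

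**Figure D1:**
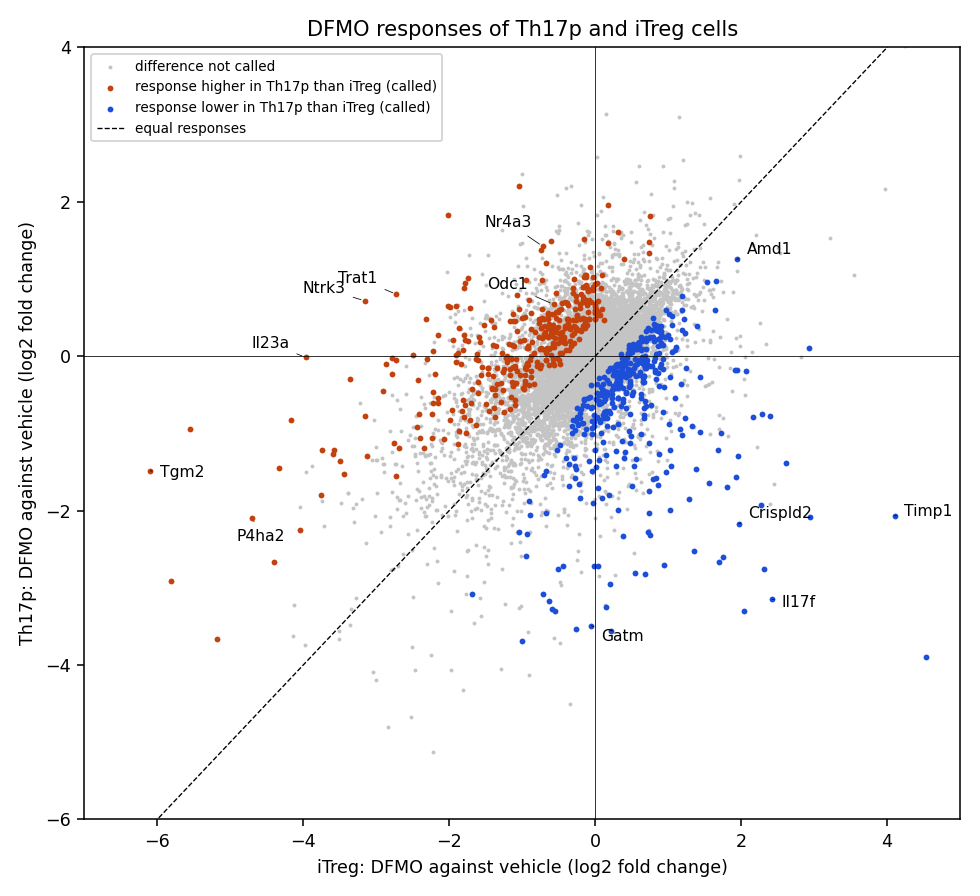
Each point is a gene with at least 10 counts in every group, placed by its log2 fold change with DFMO in iTreg cells (horizontal) and in Th17p cells (vertical). Orange and blue points are called for the response difference, and the dashed line marks equal responses. Odc1 and Nr4a3 lie in the field where Th17p cells rose and iTreg cells fell, and Timp1 and Il17f in the opposite one.

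The gene of the drug's target responded in opposite directions. Odc1 (chr12:17544794-17551505, GENCODE M21 on GRCm38) had 315, 312 and 319.5 CPM in Th17p cells with DFMO, 157, 234 and 204 CPM in Th17p cells with vehicle, 84.0, 112 and 133 CPM in iTreg cells with DFMO and 151, 165 and 172 CPM in iTreg cells with vehicle. Every DFMO library lay above the vehicle libraries in Th17p cells and below them in iTreg cells, so the groups did not overlap in either lineage. DFMO raised Odc1 by 0.67 ± 0.13 (adjusted p = 0.00084) in Th17p cells, and in iTreg cells the response was -0.57 ± 0.14 (adjusted p = 0.00276). The resulting response difference was 1.24 ± 0.19 (adjusted p = 0.00064), and the call held in every alternative tried. With vehicle the lineages' Odc1 levels ranged over 157 to 234 CPM in Th17p cells and 151 to 172 CPM in iTreg cells and overlapped. In Th17n cells the means were 191 ± 13.1 CPM with DFMO and 167 ± 5.66 CPM with vehicle.

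The next enzyme of the pathway and the hypusinated factor rose in both lineages, and rose more in iTreg cells. Amd1, S-adenosylmethionine decarboxylase, had 409.5, 418 and 374 CPM in Th17p cells with DFMO, 177, 168 and 158 CPM in Th17p cells with vehicle, 569.5, 647 and 530.4 CPM in iTreg cells with DFMO and 156, 154 and 145 CPM in iTreg cells with vehicle. In both lineages all DFMO libraries lay above all vehicle libraries, with the highest levels in iTreg cells. Its DFMO responses were 1.25 in Th17p cells and 1.94 in iTreg cells, and the response difference was -0.69 ± 0.12 (adjusted p = 0.001). Reads of Amd1 can be shared with its near-identical copy Amd2, for which the estimate varied between 1.25 and 125 CPM among iTreg libraries with DFMO, so the level of either copy is uncertain. Eif5a had 2552, 2356 and 2544 CPM in Th17p cells with DFMO, 1960, 2044 and 1959 CPM in Th17p cells with vehicle, 3523, 3614 and 3456 CPM in iTreg cells with DFMO and 2151, 1775 and 1737 CPM in iTreg cells with vehicle, again with no overlap between DFMO and vehicle in either lineage. Its responses were 0.32 in Th17p cells and 0.90 in iTreg cells, and the response difference was -0.58 ± 0.10 (adjusted p = 0.00115). Without animal 2 the adjusted p was 0.0627 for Amd1 and 0.175 for Eif5a. On log2(TPM + 1) the response difference of Amd1 was -0.44 (adjusted p = 0.0624).

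Odc1, Amd1 and Eif5a were the called members among 28 tested genes of polyamine metabolism, 1 higher and 2 lower (10.7%, against 6.85% of all genes), with a median response difference of 0.06 beside 0.02 over all genes. Polyamine genes had 3 higher and 3 lower with the animal as a block, 4 and 2 with no scaling, 5 and 1 on log2(TPM + 1), and 1 and 0 without animal 2. The remaining members gave no call. Oaz1, the main antizyme, fell by 0.86 in Th17p and by 0.99 in iTreg cells, with a response difference of 0.14 ± 0.10 (adjusted p = 0.413). Oaz2, a second antizyme, fell by 2.08 in Th17p and by 2.81 in iTreg cells. Azin1, the antizyme inhibitor that protects ornithine decarboxylase, rose by 1.27 in Th17p and by 0.84 in iTreg cells. The response differences of Oaz2 and Azin1 were 0.73 ± 0.23 (adjusted p = 0.0572) and 0.44 ± 0.14 (adjusted p = 0.0598), which passed the threshold when the animal was a block (adjusted p = 0.0426 and 0.0419). Smox, the spermine oxidase, had 111, 91.9 and 141 CPM in Th17p cells with DFMO, 279, 398 and 406 CPM in Th17p cells with vehicle, 8.95, 5.31 and 8.29 CPM in iTreg cells with DFMO and 33.5, 33.4 and 36.4 CPM in iTreg cells with vehicle. It fell in both lineages, by 1.66 and 2.21 in Th17p and iTreg cells, and its response difference was 0.56 ± 0.34 (adjusted p = 0.355). Paox, which oxidises acetylated polyamines, fell by 0.67 and 1.33 with a response difference of 0.66 ± 0.27 (adjusted p = 0.155).

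The hypusine enzymes had response differences near 0. Dhps, deoxyhypusine synthase, rose by 0.30 in Th17p and 0.28 in iTreg cells, with a response difference of 0.01 ± 0.14 (adjusted p = 0.975). Dohh, which completes hypusine, rose by 0.56 and 0.46, with a response difference of 0.11 ± 0.12 (adjusted p = 0.654). Spermine synthase (Sms) rose by 0.48 in Th17p cells, and its response in iTreg cells was 0.20 ± 0.09 (adjusted p = 0.0648). The response difference of Sms was 0.28 ± 0.12 (adjusted p = 0.168). Spermidine synthase (Srm) and the acetyltransferase Sat1 could not be compared usefully, because the animals differed widely within groups. Sat1 had 450.4, 31.5 and 498 CPM in Th17p cells with DFMO, 473, 33.1 and 469.6 CPM in Th17p cells with vehicle, 216, 24.6 and 262 CPM in iTreg cells with DFMO and 269.8, 26.9 and 296 CPM in iTreg cells with vehicle, with animal 2 far below the other animals in every group. The SE of its response difference was correspondingly large, at 0.24 ± 1.92 (adjusted p = 0.964).

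The genes whose DFMO response was highest in Th17p relative to iTreg cells were mostly genes that iTreg cells lost. Among the 15 highest named genes, all 15 fell in iTreg cells, and in Th17p cells 2 rose, 4 fell and 9 did not pass the test. Il23a, the p19 subunit of IL-23, had 11.1, 10.7 and 8.94 CPM in Th17p cells with DFMO, 6.83, 11.4 and 12.8 CPM in Th17p cells with vehicle, 0.248, 1.25 and 0.175 CPM in iTreg cells with DFMO and 6.13, 13.1 and 9.02 CPM in iTreg cells with vehicle. Th17p libraries overlapped with and without DFMO, whereas all iTreg libraries with DFMO lay below those with vehicle. Its response difference was 3.95 ± 0.61 (adjusted p = 0.00055). Ntrk3, a neurotrophin receptor, had 15.1, 16.4 and 22.9 CPM in Th17p cells with DFMO, 8.15, 8.95 and 15.9 CPM in Th17p cells with vehicle, 0.124, 0.498 and 0.611 CPM in iTreg cells with DFMO and 3.44, 3.95 and 4.55 CPM in iTreg cells with vehicle, and a response difference of 3.88 ± 0.50 (adjusted p = 0.00012). Trat1 (chr16:48730774-48772021), a transmembrane adaptor of the T cell receptor complex, had 19.3, 18.1 and 21.5 CPM in Th17p cells with DFMO, 10.0, 9.18 and 14.5 CPM in Th17p cells with vehicle, 6.21, 3.24 and 7.07 CPM in iTreg cells with DFMO and 34.3, 37.0 and 37.3 CPM in iTreg cells with vehicle. It rose by 0.80 in Th17p cells and fell by 2.72 in iTreg cells, with no overlap in either lineage, and its response difference was 3.52 ± 0.37 (adjusted p = 1.1e-05). With vehicle Trat1 was lower in Th17p than in iTreg cells, and with DFMO it was higher. The calls of Il23a, Ntrk3 and Trat1 held in every alternative.

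Gzmb, Tgm2, Anxa2 and Ccrl2 also stood among the 15 highest. Gzmb, the protease granzyme B, had 67.2, 53.7 and 78.5 CPM in Th17p cells with DFMO, 134, 90.5 and 157 CPM in Th17p cells with vehicle, 0.124, 1.83 and 0.960 CPM in iTreg cells with DFMO and 21.3, 34.02 and 95.1 CPM in iTreg cells with vehicle, and a response difference of 4.62 ± 0.91 (adjusted p = 0.00966). Tgm2, transglutaminase 2, which can couple polyamines to proteins, had 246, 306 and 302 CPM in Th17p cells with DFMO, 902, 648 and 845 CPM in Th17p cells with vehicle, 0.373, 0.581 and 0.436 CPM in iTreg cells with DFMO and 14.4, 32.3 and 52.4 CPM in iTreg cells with vehicle. DFMO lowered Tgm2 in both lineages, by 1.49 in Th17p and by 6.10 in iTreg cells, where fewer than 1 CPM was left in each library. That gave a response difference of 4.61 ± 0.71 (adjusted p = 0.00216). Anxa2, a membrane-binding annexin, followed the same course at higher levels, with means of 416 ± 23.2 CPM in Th17p cells with DFMO, 1140 ± 120.1 CPM in Th17p cells with vehicle, 19.9 ± 14.2 CPM in iTreg cells with DFMO and 406 ± 64.9 CPM in iTreg cells with vehicle (SD, n = 3 each), and a response difference of 2.88 ± 0.48 (adjusted p = 0.0039). Ccrl2, an atypical chemokine receptor, had 6.03, 4.59 and 5.19 CPM in Th17p cells with DFMO and 38.4, 45.8 and 34.45 CPM with vehicle. In iTreg cells it had 0, 0.332 and 0.611 CPM with DFMO, from 11 counts in all, and 12.8, 24.6 and 22.3 CPM with vehicle. Ccrl2 fell by 2.91 in Th17p and by 5.81 in iTreg cells, the latter to a level near the floor. Its response difference was 2.89 ± 0.62 (adjusted p = 0.00805). For the fit lacking animal 1, the adjusted p was 0.0797 for Gzmb and 0.117 for Anxa2. With animal 2 left out, the adjusted p was 0.148 for Gzmb, 0.158 for Tgm2, 0.136 for Anxa2 and 0.129 for Ccrl2. Leaving out animal 3 gave an adjusted p of 0.0689 for Ccrl2. Ccrl2 had an adjusted p of 0.139 on log2(TPM + 1) (response difference 0.75).

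The 15 genes whose response was lowest in Th17p relative to iTreg cells all fell in Th17p cells, and 11 of them rose in iTreg cells, with 4 that did not pass the test there. Their mean levels in Th17p cells with vehicle ran between 3.36 CPM for Ctsw and 1420 CPM for Il17f. Timp1, an inhibitor of metalloproteinases, had 238, 166 and 203 CPM in Th17p cells with DFMO, 577, 1059 and 910.4 CPM in Th17p cells with vehicle, 6.58, 10.5 and 2.62 CPM in iTreg cells with DFMO and 0.430, 0.184 and 0.505 CPM in iTreg cells with vehicle. The groups did not overlap in either lineage. Its response difference, -6.17 ± 0.76 (adjusted p = 0.00052), was the lowest of the 15, from responses of -2.07 in Th17p cells and 4.10 in iTreg cells. Il17f (chr1:20777146-20790617), a cytokine of Th17 cells, had the values given above, fell by 3.15 in Th17p and rose by 2.42 in iTreg cells, where its level was at most 13.9 CPM. The difference between the responses was -5.58 ± 0.75 (adjusted p = 0.00097). Il24, a cytokine of the IL-10 family, had 71.6, 51.9 and 79.2 CPM in Th17p cells with DFMO, 179, 311 and 279.6 CPM in Th17p cells with vehicle, 1.74, 4.32 and 4.45 CPM in iTreg cells with DFMO and 0.215, 0.736 and 1.18 CPM in iTreg cells with vehicle, and a response difference of -4.197 ± 0.62 (adjusted p = 0.00148). Aqp3, a channel for water and glycerol, had 0.224, 1.34 and 0.170 CPM in Th17p cells with DFMO, 5.06, 2.44 and 5.70 CPM in Th17p cells with vehicle, 192, 193 and 65.4 CPM in iTreg cells with DFMO and 54.3, 22.8 and 14.5 CPM in iTreg cells with vehicle, and a response difference of -5.07 ± 1.07 (adjusted p = 0.015). Removing animal 1 gave an adjusted p of 0.0951 for Aqp3. When animal 2 was left out, the adjusted p was 0.0628 for Timp1, 0.138 for Il24 and 0.195 for Aqp3. Dropping animal 3 gave an adjusted p of 0.0596 for Aqp3. Aqp3 had an adjusted p of 0.0562 with the 12 libraries alone. The call of Il17f held in every alternative.

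Gatm, Crispld2, Mgll and Cyp11a1, also among the lowest genes, kept their calls in every alternative. Gatm (chr2:122594467-122611303), glycine amidinotransferase, which makes ornithine and the creatine precursor guanidinoacetate from arginine and glycine, had 51.4, 46.4 and 54.1 CPM in Th17p cells with DFMO, 394, 622 and 694 CPM in Th17p cells with vehicle, 38.9, 42.5 and 21.9 CPM in iTreg cells with DFMO and 39.8, 33.0 and 34.2 CPM in iTreg cells with vehicle. It fell by 3.49 in Th17p cells, while its response in iTreg cells was -0.05 ± 0.23 (adjusted p = 0.887). The resulting response difference was -3.44 ± 0.33 (adjusted p = 7.4e-05). The mean levels were 50.6 ± 3.87 CPM in Th17p and 34.4 ± 11.0 CPM in iTreg cells with DFMO, against 569.9 ± 156 and 35.7 ± 3.63 CPM with vehicle (SD, n = 3 each). Crispld2, a secreted protein, had 14.2, 15.1 and 12.3 CPM in Th17p cells with DFMO, 52.8, 74.0 and 60.3 CPM in Th17p cells with vehicle, 18.1, 24.3 and 22 CPM in iTreg cells with DFMO and 2.26, 4.69 and 9.18 CPM in iTreg cells with vehicle. It fell in Th17p cells and rose in iTreg cells without overlap, and its log2 gap, Th17p over iTreg, was -0.64 (adjusted p = 0.0894) with DFMO, against 3.496 (adjusted p = 3.4e-07) with vehicle. That gave a response difference of -4.13 ± 0.41 (adjusted p = 5.1e-05). Mgll, monoacylglycerol lipase, had 12.1, 10.3 and 11.8 CPM in Th17p cells with DFMO, 34.5, 24.2 and 20.9 CPM in Th17p cells with vehicle, 6.34, 7.06 and 7.596 CPM in iTreg cells with DFMO and 2.37, 1.84 and 2.36 CPM in iTreg cells with vehicle, and a response difference of -2.90 ± 0.30 (adjusted p = 1.1e-05). Cyp11a1, the enzyme that begins steroid synthesis from cholesterol, had 2.35, 4.37 and 3.06 CPM in Th17p cells with DFMO, 6.17, 13.2 and 11.9 CPM in Th17p cells with vehicle, 26.5, 33.0 and 24.3 CPM in iTreg cells with DFMO and 11.1, 9.19 and 8.17 CPM in iTreg cells with vehicle, and a response difference of -3.20 ± 0.44 (adjusted p = 0.00056).

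**Figure D2:**
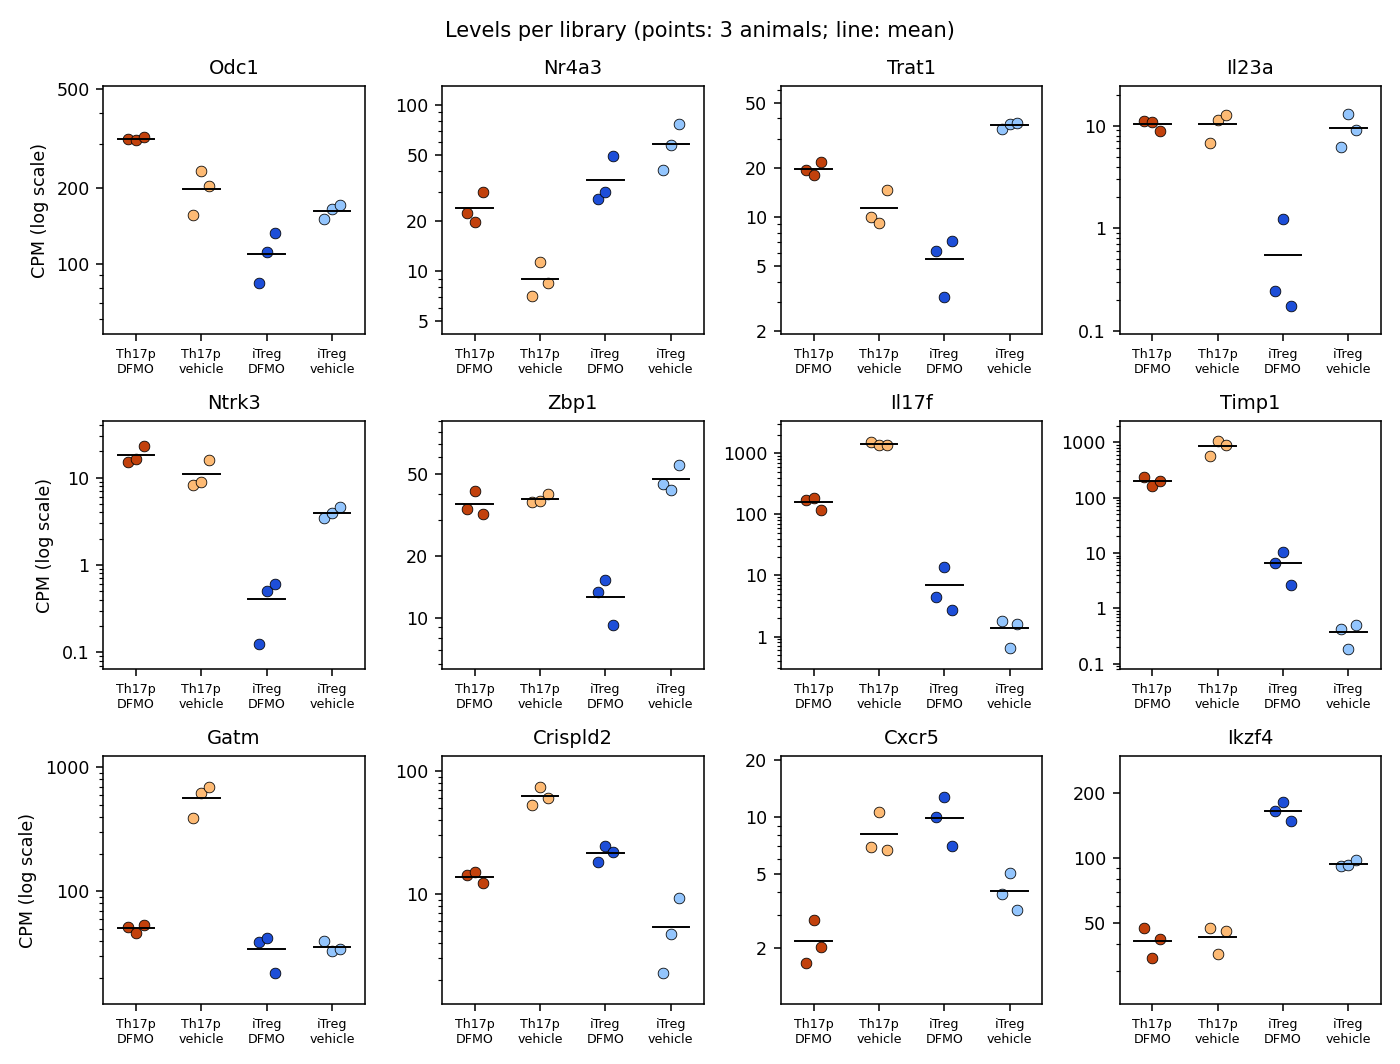
Points are CPM of the 3 animals on a log axis, in Th17p cells with DFMO and with vehicle and in iTreg cells with DFMO and with vehicle, for 12 genes, with a line at the mean. Odc1 and Trat1 rose with DFMO in Th17p cells and fell in iTreg cells, Il17f, Timp1, Crispld2 and Cxcr5 did the reverse, and Gatm changed in Th17p cells alone.

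Per-animal values showed how far single animals carried these extremes. For each animal the same difference was taken between its own 4 libraries (log2 CPM, prior count 2). The 30 extreme genes had the same sign in all 3 animals, as the naming rule required, and so had 787 of the 789 called genes. The spread between animals was smallest for genes such as Mgll, at -2.85, -3.05 and -2.42, and Cxcr5, at -3.25, -3.13 and -2.71. It was wide for Cd86, a co-stimulatory ligand, at -4.21, -0.96 and -4.28, where the vehicle level in Th17p cells was 9.58, 1.40 and 4.68 CPM. Without animal 3 the adjusted p of Cd86 was 0.0843.

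**Figure D3:**
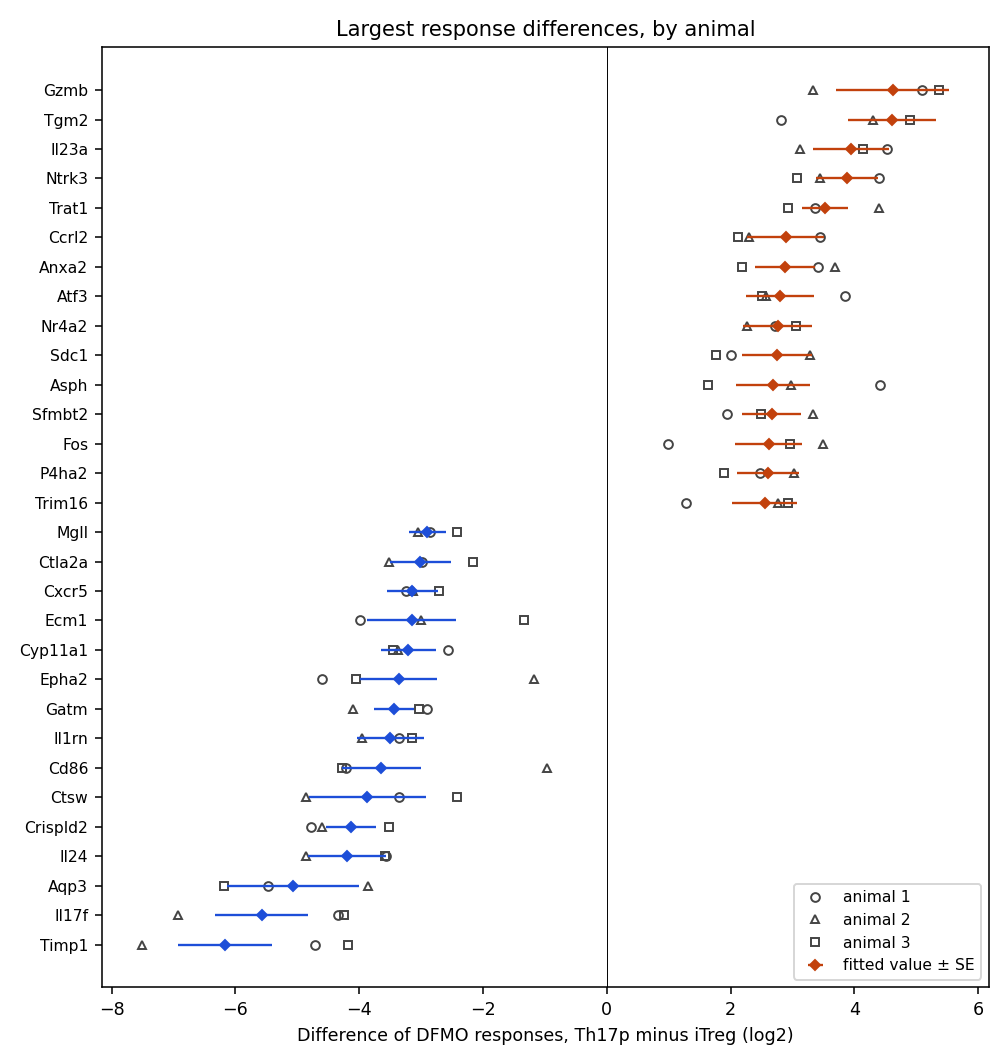
The 30 genes with the highest and lowest response difference, Th17p minus iTreg, are shown on a log2 scale, with open symbols for the value of each animal and filled diamonds with SE bars for the fitted value. All symbols of a gene lie on 1 side of 0, and Timp1 and Il17f lie farthest to the left.

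The signature genes of Th17 cells were called in both directions. Of the Th17 signature, 2 of 25 tested members were called higher and 3 lower (20.0%), with a median response difference of -0.40. Il17f was the lowest member and Tgm2 the highest. Batf, a transcription factor of the AP-1 family needed for Th17 cells, fell by 0.35 in Th17p and by 1.09 in iTreg cells, with a response difference of 0.74 ± 0.18 (adjusted p = 0.0138). Batf had an adjusted p of 0.213 without animal 1 and 0.153 without animal 2. The Th17 signature had 1 higher and 1 lower without animal 1, and 0 and 1 without animal 2.

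For the cytokines that define the lineage, the comparison could not be made, because iTreg cells hardly expressed them. Il17a had 26.0, 10.2 and 16.9 CPM in Th17p cells with DFMO and 346, 531 and 359.6 CPM with vehicle, a DFMO response of -4.57 ± 0.55 (adjusted p = 4.7e-05), but 1 and 2 counts in all in iTreg cells with DFMO and with vehicle. Il23r, the receptor of IL-23, fell by 2.18 in Th17p cells and had 1 count in each iTreg group. Il21 had 158, 130.1 and 156 CPM in Th17p cells with DFMO and 154, 121 and 97.8 CPM with vehicle, and Il22 had 307, 149 and 224 CPM and 168, 469 and 134 CPM, and neither passed the test in Th17p cells (adjusted p = 0.264 and 0.891). In iTreg cells Il21 had 2 counts in each group and Il22 had 1 with DFMO and 0 with vehicle. These counts lie at or below a floor of 3, so no response difference is given for these genes, and Csf2 and Ifng were too low in all 4 groups to be tested.

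Among genes tied to pathogenic Th17 cells, 3 of 20 tested members were called higher and 1 lower (20.0%), with a median of 0.37, or 0.62 over the 15 members with at least 10 counts in every group. Besides Gzmb, Stat4, which carries IL-12 and IL-23 signals, had 207, 162 and 184 CPM in Th17p cells with DFMO, 154, 159 and 165 CPM in Th17p cells with vehicle, 29.8, 35.4 and 44.8 CPM in iTreg cells with DFMO and 79.9, 137 and 162 CPM in iTreg cells with vehicle. Th17p levels overlapped, iTreg levels did not, and the response difference was 1.99 ± 0.38 (adjusted p = 0.00771). Gpr65, an acid-sensing receptor, fell by 1.83 in iTreg cells with a response of -0.10 ± 0.28 (adjusted p = 0.814) in Th17p cells, and its response difference was 1.73 ± 0.43 (adjusted p = 0.0295). Lgals3, galectin-3, moved the other way, with 21.4, 17.8 and 16.3 CPM in Th17p cells with DFMO, 63.2, 74.5 and 59.7 CPM in Th17p cells with vehicle, 10.1, 6.56 and 3.40 CPM in iTreg cells with DFMO and 7.96, 4.505 and 5.98 CPM in iTreg cells with vehicle, and a response difference of -1.93 ± 0.37 (adjusted p = 0.0033). Refitting without animal 1 gave an adjusted p of 0.0665 for Stat4 and 0.147 for Gpr65. Without animal 2 the adjusted p was 0.137 for Stat4, 0.231 for Gpr65 and 0.207 for Lgals3. The pathogenic list had 5 higher and 2 lower with the animal as a block, 4 and 4 on log2(TPM + 1), 1 and 1 without animal 1, and 0 and 0 without animal 2. Tbx21, the gene of T-bet, had responses of 0.49 in Th17p cells and -1.45 in iTreg cells and a response difference of 1.94 ± 0.59 (adjusted p = 0.0622), which passed the threshold with the animal as a block (adjusted p = 0.0209).

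Of 9 non-pathogenic Th17 genes, none was called higher and 2 were called lower (22.2%). Il1rn, the IL-1 receptor antagonist, had 34.5, 42.0 and 18.3 CPM in Th17p cells with DFMO, 77.8, 136 and 67.1 CPM in Th17p cells with vehicle, 101, 160.3 and 87.8 CPM in iTreg cells with DFMO and 22.1, 33.4 and 35.8 CPM in iTreg cells with vehicle. It fell in Th17p cells and rose in iTreg cells, and the response difference was -3.495 ± 0.54 (adjusted p = 0.00226). Maf, a transcription factor that drives Il10, had 2.01, 1.98 and 2.38 CPM in Th17p cells with DFMO, 5.72, 3.83 and 1.56 CPM in Th17p cells with vehicle, 6.34, 4.07 and 1.05 CPM in iTreg cells with DFMO and 1.08, 0.276 and 0.758 CPM in iTreg cells with vehicle, with overlap in both lineages, and a response difference of -3.17 ± 0.86 (adjusted p = 0.0415). The per-animal response differences of Maf were -3.79, -4.08 and 0.17, so animal 3 went the other way. For the fit lacking animal 1, the adjusted p was 0.0853 for Il1rn and 0.223 for Maf. With animal 2 left out, the adjusted p was 0.0544 for Il1rn and 0.453 for Maf. Maf had an adjusted p of 0.0834 without the filter and 0.0581 on log2(TPM + 1) (response difference -0.92). The non-pathogenic list had 0 higher and 0 lower without animal 1, and 0 and 0 without animal 2. Il10 itself had 15 and 45 counts in Th17p cells with DFMO and with vehicle, and 2 and 0 counts in iTreg cells. Socs3, the feedback inhibitor of STAT3 signalling, had 233, 224 and 254 CPM in Th17p cells with DFMO, 370.1, 404 and 407 CPM in Th17p cells with vehicle, 39.6, 48.9 and 35.9 CPM in iTreg cells with DFMO and 33.5, 33.7 and 41.1 CPM in iTreg cells with vehicle, fell by 0.73 in Th17p cells, and had a response difference of -0.93 ± 0.14 (adjusted p = 0.00049). Without animal 2 its adjusted p was 0.097. Stat3 itself had a response difference of -0.40 ± 0.13 (adjusted p = 0.0671), which passed the threshold with the animal as a block (adjusted p = 0.0322).

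Regulatory T cell genes were divided. Of 31 tested members of the Treg signature, 5 were called higher and 4 lower (29.0%, against 6.85% of all genes), with a median of 0.28. Foxp3 was not called, with a response of -0.08 ± 0.28 (adjusted p = 0.85) in iTreg cells, 70 and 24 counts in Th17p cells with DFMO and with vehicle, and a response difference of 1.36 ± 0.78 (adjusted p = 0.331). Ikzf4 (Eos), a partner of Foxp3, had 47.5, 34.4 and 42.3 CPM in Th17p cells with DFMO, 47.5, 36.1 and 46.2 CPM in Th17p cells with vehicle, 166, 182 and 148 CPM in iTreg cells with DFMO and 92.1, 92.8 and 98.2 CPM in iTreg cells with vehicle. Th17p levels overlapped and iTreg levels were higher with DFMO in every library, which gave a response difference of -0.88 ± 0.17 (adjusted p = 0.00311). Lrrc32 (GARP), which holds latent TGF-beta at the cell surface, had 5.70, 5.64 and 4.26 CPM in Th17p cells with DFMO, 16.6, 19.3 and 18.4 CPM in Th17p cells with vehicle, 114, 87.3 and 64.1 CPM in iTreg cells with DFMO and 104, 62.5 and 66.2 CPM in iTreg cells with vehicle, and a response difference of -1.98 ± 0.29 (adjusted p = 0.00037). Capg, an actin-capping protein, fell by 0.92 in Th17p cells and had a response difference of -1.17 ± 0.18 (adjusted p = 0.00067). Ctla4, a co-inhibitory receptor, had 206, 199.5 and 180.0 CPM in Th17p cells with DFMO, 404, 455 and 479.5 CPM in Th17p cells with vehicle, 39.0, 42.0 and 41.3 CPM in iTreg cells with DFMO and 189.6, 199 and 234 CPM in iTreg cells with vehicle. It fell in both lineages, by 1.19 and by 2.35, and the response difference was 1.15 ± 0.24 (adjusted p = 0.00835). Leaving out animal 1 gave an adjusted p of 0.178 for Ctla4. Removing animal 2 gave an adjusted p of 0.0812 for Lrrc32, 0.107 for Capg and 0.0628 for Ctla4. The Treg signature had 1 higher and 1 lower without animal 2. Nr4a3 and Ikzf4 kept their calls in every alternative.

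Among early response genes of the T cell receptor, Nr4a2 and Nr4a3 rose in Th17p and fell in iTreg cells. Of 28 members, 5 were called higher and 3 lower (28.6%), with a median response difference of 0.62, from medians of 0.62 in Th17p and -0.23 in iTreg cells. Nr4a3, an orphan nuclear receptor induced by antigen, had 22.2, 19.8 and 29.9 CPM in Th17p cells with DFMO, 7.05, 11.4 and 8.45 CPM in Th17p cells with vehicle, 27.0, 29.97 and 49.1 CPM in iTreg cells with DFMO and 40.7, 57.5 and 76.8 CPM in iTreg cells with vehicle. It rose in Th17p cells without overlap and fell in iTreg cells, where the highest library with DFMO lay above the lowest with vehicle. The difference between the responses was 2.14 ± 0.36 (adjusted p = 0.00119). Nr4a2 of the same family had 72.7, 62.8 and 71.2 CPM in Th17p cells with DFMO, 27.6, 33.9 and 40.7 CPM in Th17p cells with vehicle, 4.10, 4.90 and 4.10 CPM in iTreg cells with DFMO and 10.5, 13.2 and 20.4 CPM in iTreg cells with vehicle, and a response difference of 2.76 ± 0.56 (adjusted p = 0.00937). Cd69, an activation marker that retains cells in tissue, had 198, 191 and 182 CPM in Th17p cells with DFMO, 144, 176 and 143 CPM in Th17p cells with vehicle, 122, 135 and 143 CPM in iTreg cells with DFMO and 165, 192 and 204 CPM in iTreg cells with vehicle, and a response difference of 0.79 ± 0.14 (adjusted p = 0.001). Fos had a response difference of 2.62 ± 0.54 (adjusted p = 0.00617), and Ier3, which fell more in Th17p cells, one of -0.97 ± 0.20 (adjusted p = 0.00477). When animal 1 was left out, the adjusted p was 0.142 for Nr4a2. Dropping animal 2 gave an adjusted p of 0.0812 for Nr4a2, 0.212 for Fos and 0.135 for Ier3. Early response genes had 4 higher and 1 lower without animal 1, and 2 and 0 without animal 2.

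Receptors that guide cells to tissue differed in several cases. Cxcr5, the receptor that leads cells to B cell follicles, had 1.68, 2.82 and 2.04 CPM in Th17p cells with DFMO, 6.94, 10.6 and 6.71 CPM in Th17p cells with vehicle, 9.94, 12.7 and 6.99 CPM in iTreg cells with DFMO and 3.87, 5.06 and 3.20 CPM in iTreg cells with vehicle. The groups did not overlap in either lineage, and the response difference was -3.14 ± 0.41 (adjusted p = 0.00012). Ccr4, a receptor of Th2 and regulatory T cells, had 96.4, 87.3 and 118 CPM in Th17p cells with DFMO, 97.4, 129.8 and 113 CPM in Th17p cells with vehicle, 289, 298 and 313 CPM in iTreg cells with DFMO and 169, 144 and 160.0 CPM in iTreg cells with vehicle. Th17p levels overlapped, iTreg levels were higher in all DFMO libraries, and the response difference was -1.10 ± 0.15 (adjusted p = 0.00015). Itga4, the alpha 4 integrin, rose by 0.57 in Th17p and fell by 0.52 in iTreg cells, with a response difference of 1.09 ± 0.23 (adjusted p = 0.00621). S1pr1, which lets cells leave lymph nodes, fell by 0.87 in Th17p cells, and its response difference was -1.19 ± 0.28 (adjusted p = 0.0151). Cxcr3, a receptor for interferon-induced chemokines, fell by 1.47 in Th17p cells, and its response difference was -1.21 ± 0.27 (adjusted p = 0.00805). Refitting without animal 1 gave an adjusted p of 0.161 for S1pr1 and 0.152 for Cxcr3. Without animal 2 the adjusted p was 0.0958 for Itga4, 0.274 for S1pr1 and 0.0696 for Cxcr3. S1pr1 had an adjusted p of 0.0577 with the 12 libraries alone. Of 20 homing genes, 1 was called higher and 2 lower (15%), and of 17 tested Th1 and Th2 genes, 3 higher and 4 lower (41.2%). Homing genes had 3 higher and 3 lower with the animal as a block, and 0 and 1 without animal 2. Th1 and Th2 genes had 0 higher and 2 lower without animal 1, and 0 and 1 without animal 2. Gata3, the Th2 transcription factor, was among them, with responses of 0.54 in Th17p cells and -0.59 in iTreg cells and a response difference of 1.13 ± 0.31 (adjusted p = 0.0351). Gata3 had an adjusted p of 0.0638 without animal 1, 0.304 without animal 2 and 0.0517 without animal 3.

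Targets of TGF-beta, the cytokine given to iTreg cells and not to Th17p cells, were called higher for 1 and lower for 3 of 21 tested members (19.0%), with a median of -0.33. In iTreg cells 12 members rose and 1 fell (61.9%, against 37.6% of all genes). In Th17p cells 5 rose and 2 fell (33.3%, close to the 32.9% of all genes). Ldlrad4, a feedback inhibitor of the pathway, had 4.25, 4.30 and 4.60 CPM in Th17p cells with DFMO, 6.495, 7.67 and 8.73 CPM in Th17p cells with vehicle, 58.0, 39.6 and 29.2 CPM in iTreg cells with DFMO and 26.7, 17.4 and 10.1 CPM in iTreg cells with vehicle, and a response difference of -2.03 ± 0.43 (adjusted p = 0.00759). Id2, an inhibitor of helix-loop-helix factors, had a response difference of -0.83 ± 0.22 (adjusted p = 0.027), and Ski, a corepressor of SMAD proteins, one of -0.69 ± 0.18 (adjusted p = 0.026). Pmepa1, another feedback inhibitor, rose in both lineages and more in Th17p cells, with a response difference of 1.06 ± 0.30 (adjusted p = 0.0338). For the fit lacking animal 1, the adjusted p was 0.0884 for Pmepa1. With animal 2 left out, the adjusted p was 0.254 for Ldlrad4, 0.375 for Id2, 0.248 for Ski and 0.375 for Pmepa1. Leaving out animal 3 gave an adjusted p of 0.135 for Id2, 0.0816 for Ski and 0.07 for Pmepa1. Id2 had an adjusted p of 0.0703 with the 12 libraries alone and 0.0617 on log2(TPM + 1) (response difference -0.61). Ski had an adjusted p of 0.0693 with the 12 libraries alone, 0.0578 with no scaling and 0.145 on log2(TPM + 1) (response difference -0.41). Pmepa1 had an adjusted p of 0.0785 with the 12 libraries alone, 0.0675 on log2(TPM + 1) (response difference 0.70), 0.0698 with run 1 alone and 0.0647 with run 2 alone. TGF-beta targets had 0 higher and 1 lower with the 12 libraries alone, 0 and 2 on log2(TPM + 1), 0 and 0 without animal 2, and 0 and 1 without animal 3. The median of the list was -0.04 on log2(TPM + 1), where that of all genes was 0.23, against 0.02 in the counts. Tgfb1 itself rose by 1.19 in Th17p and 1.16 in iTreg cells, with a response difference of 0.02 ± 0.43 (adjusted p = 0.986).

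The interferon response fell in both lineages. Of 52 members, 45 fell and none rose in Th17p cells (86.5%, against 32.9% of all genes), with a median DFMO response of -1.59. In iTreg cells 41 fell and 1 rose (80.8%, against 37.6%), with a median of -1.68. The response difference was called for 2 higher and 2 lower (7.69%, close to the 6.85% of all genes), with a median of -0.03. Zbp1, a sensor of nucleic acids that is induced by interferon, was an exception. It had 33.9, 41.4 and 32.1 CPM in Th17p cells with DFMO, 36.3, 37.1 and 40.0 CPM in Th17p cells with vehicle, 13.4, 15.3 and 9.26 CPM in iTreg cells with DFMO and 44.8, 41.9 and 55.0 CPM in iTreg cells with vehicle, with overlap in Th17p cells and none in iTreg cells, and a response difference of 1.82 ± 0.26 (adjusted p = 0.00023) that held in every alternative. Irf8 had 77.3, 80.6 and 75.0 CPM in Th17p cells with DFMO, 79.2, 126 and 144 CPM in Th17p cells with vehicle, 791, 796 and 994 CPM in iTreg cells with DFMO and 437, 489.6 and 679 CPM in iTreg cells with vehicle, and a response difference of -1.27 ± 0.27 (adjusted p = 0.012). Irf1 fell by 1.17 in iTreg cells, with a response difference of 1.01 ± 0.27 (adjusted p = 0.0332). Ifit3 was called lower at -6.44 ± 1.70 (adjusted p = 0.0483), but its reads can be shared with the copy Ifit3b, and its level in iTreg cells with DFMO was 33.2, 27.2 and 0.436 CPM. Removing animal 1 gave an adjusted p of 0.238 for Irf1 and 0.276 for Ifit3. When animal 2 was left out, the adjusted p was 0.267 for Irf8, 0.201 for Irf1 and 0.453 for Ifit3. Irf1 had an adjusted p of 0.0903 with the 12 libraries alone and 0.0706 without the filter. Ifit3 had an adjusted p of 0.0676 with the animal as a block, 0.095 with the 12 libraries alone, 0.0744 without the filter, 0.131 on log2(TPM + 1) (response difference -2.45) and 0.0645 with run 1 alone. The interferon list had 6 higher and 3 lower with the animal as a block, 1 and 1 with the 12 libraries alone, 8 and 2 with no scaling, 7 and 1 on log2(TPM + 1), 1 and 0 without animal 2, and 2 and 10 without animal 3. Of 24 genes of MHC class I presentation, none was called in either direction by edgeR, 6 had an unadjusted p under 0.05, and DESeq2 called 1. Presentation genes had 1 higher and 0 lower with no scaling, 2 and 0 on log2(TPM + 1), and 1 and 0 without animal 3. In Th17p cells 15 of the presentation genes fell and none rose (62.5%, against 32.9% of all genes). In iTreg cells 18 fell and 2 rose (83.3%, against 37.6%).

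Glycolytic genes fell in both lineages, with the lower median in iTreg cells. In Th17p cells 16 of 24 members fell and 1 rose (70.8%, against 32.9% of all genes), with a median DFMO response of -0.52. In iTreg cells 20 fell and 1 rose (87.5%, against 37.6%), with a median of -1.09. The response difference was called higher for 5 and lower for 2 (29.2%), with a median of 0.45 and 19 of 24 values above 0. Aldoa, aldolase A, had 2341, 2313 and 2313 CPM in Th17p cells with DFMO, 3430, 3117 and 3286 CPM in Th17p cells with vehicle, 769, 927 and 1287 CPM in iTreg cells with DFMO and 2364, 2724 and 2669 CPM in iTreg cells with vehicle, and a response difference of 0.88 ± 0.17 (adjusted p = 0.00467). Pgk1, phosphoglycerate kinase, had 2503, 2443 and 2557 CPM in Th17p cells with DFMO, 3731, 3489 and 3650 CPM in Th17p cells with vehicle, 1016, 1206 and 1597 CPM in iTreg cells with DFMO and 2810, 2952 and 2776 CPM in iTreg cells with vehicle, and a response difference of 0.63 ± 0.15 (adjusted p = 0.0164). In both genes the DFMO libraries lay below the vehicle libraries in each lineage. Ldhb, the lactate dehydrogenase subunit that favours pyruvate, was called lower, at -0.996 ± 0.20 (adjusted p = 0.00327), with 59.2, 47.3 and 55.1 CPM in Th17p cells with DFMO, 56.9, 65.2 and 60.9 CPM in Th17p cells with vehicle, 58.0, 58.7 and 85.6 CPM in iTreg cells with DFMO and 37.9, 35.7 and 41.5 CPM in iTreg cells with vehicle. Dropping animal 1 gave an adjusted p of 0.088 for Pgk1. Refitting without animal 2 gave an adjusted p of 0.238 for Aldoa, 0.322 for Pgk1 and 0.112 for Ldhb. Glycolytic genes had 9 higher and 2 lower with the animal as a block, 10 and 1 with no scaling, 13 and 2 on log2(TPM + 1), 2 and 2 without animal 1, 0 and 0 without animal 2, and 13 and 1 without animal 3.

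Hypoxia-inducible genes also fell in both lineages, with a lower median than the glycolytic genes in each. Of 27 members, 19 fell and none rose in Th17p cells (70.4%, against 32.9% of all genes), with a median DFMO response of -0.98. In iTreg cells 24 fell and 1 rose (92.6%, against 37.6%), with a median of -1.25. The response difference was called higher for 5 and lower for 2 (25.9%), with a median of 0.26, beside 0.45 for the glycolytic genes. Some of these genes also stand in the glycolysis list. P4ha2, a collagen prolyl hydroxylase, had 22.1, 19.4 and 23.2 CPM in Th17p cells with DFMO, 99.8, 87.2 and 88.9 CPM in Th17p cells with vehicle, 0.497, 0.249 and 1.22 CPM in iTreg cells with DFMO and 17.0, 15.9 and 19.8 CPM in iTreg cells with vehicle, and a response difference of 2.61 ± 0.50 (adjusted p = 0.00472). Ndrg1 had 165, 145 and 150.2 CPM in Th17p cells with DFMO, 400.5, 391 and 389.7 CPM in Th17p cells with vehicle, 6.71, 7.14 and 11.0 CPM in iTreg cells with DFMO and 94.0, 85.8 and 103 CPM in iTreg cells with vehicle, and a response difference of 2.13 ± 0.41 (adjusted p = 0.00763). Mxi1, an antagonist of Myc, fell by 1.65 in Th17p cells with a response of -0.23 ± 0.18 (adjusted p = 0.336) in iTreg cells, and its response difference was -1.43 ± 0.25 (adjusted p = 0.00121). Adm, adrenomedullin, had 1.56, 2.96 and 1.96 CPM in Th17p cells with DFMO, 5.39, 2.56 and 5.24 CPM in Th17p cells with vehicle, 31.9, 25.2 and 43.1 CPM in iTreg cells with DFMO and 10.0, 13.2 and 7.16 CPM in iTreg cells with vehicle. It was the member that rose in iTreg cells, and its response difference of -2.72 ± 0.45 (adjusted p = 0.00071) held in every alternative. Without animal 1 the adjusted p was 0.135 for P4ha2 and 0.0944 for Ndrg1. For the fit lacking animal 2, the adjusted p was 0.201 for Ndrg1 and 0.0638 for Mxi1. Without animal 3 the median was 0.79. Hypoxia genes had 8 higher and 3 lower on log2(TPM + 1), 0 and 2 without animal 1, 1 and 1 without animal 2, and 12 and 2 without animal 3. Hif1a, the gene of the hypoxia-inducible factor, fell by 0.67 and 0.93 in Th17p and iTreg cells, with a response difference of 0.26 ± 0.18 (adjusted p = 0.406).

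The promoters of P4ha2 and Pgk1 are shown because both genes fell in both lineages and fell further in iTreg cells, and because their sequences hold the core of the hypoxia response element. The sequences are from RefSeq on GRCm38.p6, 250 bases before to 50 bases after the start of the gene, written 5′ to 3′ on the gene's strand. Capitals mark each ACGTG on either strand, so that CACGT is the same motif on the other strand.
P4ha2: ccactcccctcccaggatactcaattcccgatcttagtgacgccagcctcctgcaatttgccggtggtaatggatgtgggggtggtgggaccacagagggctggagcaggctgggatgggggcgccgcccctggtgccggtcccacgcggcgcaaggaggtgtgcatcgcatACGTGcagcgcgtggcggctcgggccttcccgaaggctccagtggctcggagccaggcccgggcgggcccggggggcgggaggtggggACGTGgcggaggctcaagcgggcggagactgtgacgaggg
Pgk1: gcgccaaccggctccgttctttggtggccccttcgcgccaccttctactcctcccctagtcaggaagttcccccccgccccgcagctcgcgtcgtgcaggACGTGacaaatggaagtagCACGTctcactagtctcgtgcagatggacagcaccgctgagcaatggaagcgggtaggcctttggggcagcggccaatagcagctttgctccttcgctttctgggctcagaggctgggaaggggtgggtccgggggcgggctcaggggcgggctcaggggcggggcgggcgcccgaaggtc
The P4ha2 window is chr11:54100674-54100973 (+ strand) and the Pgk1 window is chrX:106186850-106187149 (+ strand). The P4ha2 window lies inside the gene's span in GENCODE M21, chr11:54100095-54131665. ACGTG stood on either strand in 17 of 23 hypoxia promoters in the table (73.9%) and in 14 of 23 glycolysis promoters (60.9%), against 21.8% of 27025 promoters of all genes and 29.9% of the 8832 promoters of genes tested here. Among the called members with a promoter in the table, 3 of 6 in each list held it, Bnip3, Mxi1 and P4ha2 in the hypoxia list and Aldoa, Aldoc and Pgk1 in the glycolysis list. A match describes the letters of the window and is not a measured site.

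Of the amino acid response genes, which ATF4 drives when amino acids or charged tRNAs run short, more fell than rose in both lineages. Of 42 members, 1 rose and 16 fell in Th17p cells (40.5%, against 32.9% of all genes), with a median DFMO response of -0.35. In iTreg cells 4 rose and 23 fell (64.3%, against 37.6%), with a median of -0.49. The response difference was called higher for 6 and lower for 1 (16.7%), with a median of 0.14. Ddit3 (CHOP), a stress transcription factor, had 84.0, 77.9 and 77.3 CPM in Th17p cells with DFMO, 148, 129 and 125 CPM in Th17p cells with vehicle, 13.8, 12.7 and 15.6 CPM in iTreg cells with DFMO and 48.6, 85.7 and 89.4 CPM in iTreg cells with vehicle, and a response difference of 1.66 ± 0.25 (adjusted p = 0.00052). Trib3, a pseudokinase induced by ATF4, had 40.6, 48.5 and 33.5 CPM in Th17p cells with DFMO, 99.8, 84.2 and 82.8 CPM in Th17p cells with vehicle, 7.08, 8.13 and 13.9 CPM in iTreg cells with DFMO and 57.0, 71.6 and 69.7 CPM in iTreg cells with vehicle, and a response difference of 1.63 ± 0.30 (adjusted p = 0.0033). In both genes the DFMO libraries lay below the vehicle libraries in each lineage. Atf3 had 66.2, 65.3 and 78.2 CPM in Th17p cells with DFMO, 33.9, 55.2 and 61.2 CPM in Th17p cells with vehicle, 1.86, 4.90 and 8.90 CPM in iTreg cells with DFMO and 15.1, 25.3 and 40.2 CPM in iTreg cells with vehicle, and a response difference of 2.80 ± 0.55 (adjusted p = 0.00894). Its Th17p libraries with DFMO all lay above those with vehicle, although the response there did not pass the test, at 0.48 ± 0.36 (adjusted p = 0.336). Cth, which makes cysteine from cystathionine, had a response difference of 1.11 ± 0.23 (adjusted p = 0.00621). Nupr1, a small stress-induced chromatin protein, was called lower, at -1.41 ± 0.26 (adjusted p = 0.00247), and rose by 1.25 in iTreg cells. With animal 2 left out, the adjusted p was 0.057 for Ddit3, 0.138 for Trib3, 0.238 for Atf3, 0.0649 for Cth and 0.057 for Nupr1. Without animal 3 the median of the list was 0.33. The amino acid list had 10 higher and 2 lower with the animal as a block, and 0 and 0 without animal 2. Of 29 genes of the unfolded protein response, none was called higher and Ssr1, a subunit of the translocon-associated complex, was called lower (3.45%), at -0.37 ± 0.10 (adjusted p = 0.0253). Ssr1 had an adjusted p of 0.267 without animal 2 and 0.264 without animal 3. Ssr1 had an adjusted p of 0.0608 with the 12 libraries alone, 0.127 with no scaling, 0.0697 without the filter and 0.594 on log2(TPM + 1) (response difference -0.12). The unfolded protein list had 1 higher and 2 lower with the animal as a block, 0 and 0 with the 12 libraries alone, 0 and 0 with no scaling, 4 and 0 on log2(TPM + 1), 0 and 0 without animal 2, and 0 and 0 without animal 3.

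The promoters of Atf3 and Trib3 are shown as members of this list with the composite element that ATF4 binds with C/EBP proteins. They are RefSeq windows on GRCm38.p6, built like those above. The Atf3 window lies inside the gene's span, chr1:191170296-191218039. Capitals mark TGATGNAA on either strand.
Atf3: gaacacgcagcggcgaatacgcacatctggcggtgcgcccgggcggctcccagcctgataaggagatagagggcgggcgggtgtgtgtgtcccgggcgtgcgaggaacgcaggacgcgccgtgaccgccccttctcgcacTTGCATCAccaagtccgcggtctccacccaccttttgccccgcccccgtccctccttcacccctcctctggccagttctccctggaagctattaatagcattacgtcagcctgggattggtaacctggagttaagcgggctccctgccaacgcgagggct
Trib3: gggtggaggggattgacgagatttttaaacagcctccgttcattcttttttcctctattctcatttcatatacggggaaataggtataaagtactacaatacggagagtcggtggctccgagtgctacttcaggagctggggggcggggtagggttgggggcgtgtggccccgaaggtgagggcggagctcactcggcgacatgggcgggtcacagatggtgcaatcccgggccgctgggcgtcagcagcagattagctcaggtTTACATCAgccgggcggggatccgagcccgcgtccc
The Atf3 window is chr1:191183284-191183583 (- strand) and the Trib3 window is chr2:152344011-152344310 (- strand). TGATGNAA stood on either strand in 14 of 34 promoters of the list (41.2%), against 4.51% of 27025 promoters of all genes and 2.79% of the 8832 promoters of genes tested here. Among the 6 called members with a promoter in the table, Atf3, Nupr1 and Trib3 held it. Of these 3, Atf3 and Trib3 had a higher and Nupr1 a lower response in Th17p cells.

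Sterol genes fell in iTreg cells, and few of them passed the test in Th17p cells. Of 28 members of cholesterol synthesis, 17 fell and none rose in iTreg cells (60.7%, against 37.6% of all genes), with a median DFMO response of -0.90. In Th17p cells 3 fell and 1 rose (14.3%, against 32.9%), with a median of -0.06. The response difference was called higher for 3 and lower for none (10.7%, against 6.85% of all genes). Of the 28 values, 27 were above 0, 14 had an unadjusted p under 0.05 and the median was 0.71. Dhcr7, which makes cholesterol in the last step of one branch, had 44.8, 46.9 and 38.2 CPM in Th17p cells with DFMO, 48.2, 39.0 and 38.7 CPM in Th17p cells with vehicle, 43.0, 37.9 and 68.7 CPM in iTreg cells with DFMO and 102, 85.2 and 82.1 CPM in iTreg cells with vehicle. Th17p levels overlapped, and all iTreg libraries with DFMO lay below those with vehicle. Its response difference was 0.89 ± 0.24 (adjusted p = 0.0281). Srebf2, the gene of the transcription factor that drives the pathway, had 185, 174 and 159 CPM in Th17p cells with DFMO, 139.8, 126 and 138 CPM in Th17p cells with vehicle, 162, 152 and 191 CPM in iTreg cells with DFMO and 196, 183 and 180.4 CPM in iTreg cells with vehicle, and a response difference of 0.51 ± 0.13 (adjusted p = 0.0262). Leaving out animal 1 gave an adjusted p of 0.196 for Dhcr7 and 0.184 for Srebf2. Removing animal 2 gave an adjusted p of 0.362 for Dhcr7 and 0.356 for Srebf2. Dhcr7 had an adjusted p of 0.0724 with the 12 libraries alone. Sterol genes had 5 higher and 0 lower with the animal as a block, 1 and 0 with the 12 libraries alone, 5 and 0 with no scaling, 14 and 0 on log2(TPM + 1), 0 and 0 without animal 1, 0 and 0 without animal 2, and 9 and 0 without animal 3.

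The mitochondrial lists differed in how many members were called. Of 72 genes of the respiratory chain and ATP synthase, none was called for the response difference by edgeR, 18 had an unadjusted p under 0.05, and DESeq2 called 1. In iTreg cells 48 rose and 2 fell (69.4%, against 37.6% of all genes). In Th17p cells 25 rose and 5 fell (41.7%, against 32.9%). The median response difference was -0.19, with 63 of 72 values below 0. On log2(TPM + 1) it was 0.05, where that of all genes was 0.23, so it lay below that of all genes on both scales. Respiratory chain genes had 0 higher and 10 lower with the animal as a block, and 0 and 3 without animal 1. Of 32 genes of the TCA cycle, 2 were called higher and 3 lower (15.6%, against 6.85% of all genes). TCA cycle genes had 1 higher and 1 lower with the 12 libraries alone, 0 and 2 without animal 1, 0 and 0 without animal 2, and 2 and 1 without animal 3. Idh1, the cytosolic isocitrate dehydrogenase, had 22.7, 17.4 and 15.5 CPM in Th17p cells with DFMO, 26.5, 25.9 and 24.2 CPM in Th17p cells with vehicle, 4.84, 4.65 and 9.26 CPM in iTreg cells with DFMO and 33.9, 33.1 and 21.8 CPM in iTreg cells with vehicle, and a response difference of 1.76 ± 0.34 (adjusted p = 0.0033). Aco1, the other TCA cycle member called higher, had a response difference of 0.51 (adjusted p = 0.035). The members called lower included Suclg2, at -0.60 (adjusted p = 0.00513), and Mdh2, at -0.33 (adjusted p = 0.0285). Cpt1a, which admits long fatty acids to mitochondria, had 49.2, 57.9 and 48.0 CPM in Th17p cells with DFMO, 36.1, 30.3 and 35.5 CPM in Th17p cells with vehicle, 18.6, 17.2 and 26.4 CPM in iTreg cells with DFMO and 32.8, 32.3 and 38.2 CPM in iTreg cells with vehicle. It rose in Th17p cells by 0.61 and fell in iTreg cells by 0.73 without overlap in either, and its response difference was 1.34 ± 0.22 (adjusted p = 0.00071). When animal 1 was left out, the adjusted p was 0.0872 for Idh1, 0.134 for Aco1 and 0.055 for Suclg2. Dropping animal 2 gave an adjusted p of 0.198 for Idh1, 0.276 for Aco1, 0.106 for Suclg2, 0.405 for Mdh2 and 0.0903 for Cpt1a. Without animal 3 it was 0.154 for Aco1 and 0.17 for Mdh2. Aco1 had an adjusted p of 0.062 with the 12 libraries alone and 0.15 with run 1 alone. Suclg2 had 0.12 on log2(TPM + 1) (response difference -0.35). Mdh2 had 0.0664 with the 12 libraries alone, 0.134 with no scaling, 0.0962 without the filter and 0.591 on log2(TPM + 1) (response difference -0.09). Of 25 genes of fatty acid oxidation, 1 was called higher and 1 lower (8%). The higher one was Cpt1a and the lower one Hadhb, at -0.42 (adjusted p = 0.0302). Hadhb had an adjusted p of 0.133 without animal 1, 0.247 without animal 2 and 0.106 without animal 3. It had 0.0653 with the 12 libraries alone, 0.11 with no scaling, 0.054 without the filter and 0.0513 with run 2 alone. On log2(TPM + 1) its adjusted p was 0.377 (response difference -0.18). Fatty acid oxidation genes had 4 higher and 2 lower with the animal as a block, 1 and 0 with the 12 libraries alone, 4 and 0 with no scaling, 7 and 0 on log2(TPM + 1), 1 and 0 without animal 1, and 0 and 0 without animal 2.

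Genes of the G2 and M phases were called about as often as all genes. Of 50 members, 4 were called higher and none lower (8%, close to the 6.85% of all genes), with 42 values above 0 and a median of 0.26, from medians of 0.20 in Th17p and -0.04 in iTreg cells. Mki67, the gene of the proliferation marker Ki-67, had 193, 239.8 and 220.1 CPM in Th17p cells with DFMO, 217, 174 and 187 CPM in Th17p cells with vehicle, 269, 277 and 304 CPM in iTreg cells with DFMO and 417, 369.9 and 355 CPM in iTreg cells with vehicle, and a response difference of 0.60 ± 0.14 (adjusted p = 0.00917). Without animal 2 its adjusted p was 0.23, and the median of the list was 0.17 (0.16 without animal 1). The G2 and M list had 1 higher and 0 lower with the 12 libraries alone, 10 and 0 with no scaling, 13 and 0 on log2(TPM + 1), 1 and 0 without animal 1, and 0 and 0 without animal 2. Of 45 genes of DNA replication, Gins2 alone was called (2.22%), at 0.53 ± 0.13 (adjusted p = 0.015). Gins2 had an adjusted p of 0.125 without animal 1, 0.212 without animal 2 and 0.0924 without animal 3. Gins2 had an adjusted p of 0.0629 with run 1 alone. Replication genes had 4 higher and 2 lower with the animal as a block, 5 and 0 with no scaling, 7 and 0 on log2(TPM + 1), 0 and 0 without animal 2, and 2 and 0 without animal 3. Among 30 chromatin regulators, 3 were called higher and none lower (10.0%). Ezh2, the polycomb methyltransferase, had 131, 131 and 152 CPM in Th17p cells with DFMO, 72.1, 75.7 and 74.7 CPM in Th17p cells with vehicle, 104, 93.4 and 156 CPM in iTreg cells with DFMO and 127, 124 and 143 CPM in iTreg cells with vehicle, and a response difference of 1.06 ± 0.20 (adjusted p = 0.00226). Kdm2b, a demethylase that recruits polycomb to CpG islands, and Dnmt3a, a DNA methyltransferase, had response differences of 0.88 ± 0.16 (adjusted p = 0.00209) and 0.74 ± 0.16 (adjusted p = 0.0063). Refitting without animal 1 gave an adjusted p of 0.0761 for Ezh2. Without animal 2 the adjusted p was 0.0729 for Ezh2, 0.11 for Kdm2b and 0.126 for Dnmt3a. For the fit lacking animal 3, the adjusted p was 0.0581 for Kdm2b and 0.0553 for Dnmt3a. Chromatin regulators had 5 higher and 1 lower with the animal as a block, 0 and 0 without animal 2, and 1 and 0 without animal 3.

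Genes of protein production and breakdown gave almost no calls, and lists of this size hold few at the 6.85% of all genes. Of 44 genes of ribosome biogenesis, 31 rose and 1 fell in Th17p cells (72.7%, against 32.9% of all genes). In iTreg cells 32 rose and 2 fell (77.3%, against 37.6%). The response difference was called for 1 gene of the list (2.27%). That gene was Dkc1, the pseudouridine synthase of small nucleolar particles, at -0.42 ± 0.12 (adjusted p = 0.0398). Dkc1 had an adjusted p of 0.419 without animal 2 and 0.182 without animal 3. Dkc1 had an adjusted p of 0.0571 with the 12 libraries alone, 0.136 with no scaling, 0.433 on log2(TPM + 1) (response difference -0.19) and 0.0574 with run 2 alone. Ribosome biogenesis genes had 0 higher and 2 lower with the animal as a block, 0 and 0 with the 12 libraries alone, 0 and 4 without animal 1, and 0 and 0 without animal 2. None of 40 translation initiation factors and none of 36 proteasome subunits was called in edgeR, and 10 and 4 of them had an unadjusted p under 0.05. With DESeq2 the counts called were 2 and 1. Initiation factors had 1 higher and 2 lower with the animal as a block, 1 and 0 with no scaling, 1 and 0 on log2(TPM + 1), and 1 and 0 without animal 3. Proteasome subunits had 0 higher and 1 lower with the animal as a block, 1 and 0 with no scaling, and 3 and 0 on log2(TPM + 1). Of 35 p53 targets, 1 was called higher and 1 lower (5.71%). The p53 targets had 0 higher and 0 lower without animal 2.

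Death genes differed in both directions. Of 33 genes of apoptosis, 2 were called higher and 4 lower (18.2%), with a median of 0.12. Bid, which links death receptors to mitochondria, had 25.0, 23.9 and 22.7 CPM in Th17p cells with DFMO, 36.7, 28.1 and 27.1 CPM in Th17p cells with vehicle, 72.4, 78.2 and 100.4 CPM in iTreg cells with DFMO and 35.7, 40.3 and 35.5 CPM in iTreg cells with vehicle, with no overlap in either lineage, and a response difference of -1.53 ± 0.22 (adjusted p = 0.00025). Bcl2a1b, a pro-survival member of the BCL-2 family, had 85.4, 81.9 and 71.5 CPM in Th17p cells with DFMO, 42.5, 49.9 and 43.2 CPM in Th17p cells with vehicle, 43.7, 45.4 and 45.1 CPM in iTreg cells with DFMO and 55.3, 68.8 and 71.3 CPM in iTreg cells with vehicle, and a response difference of 1.36 ± 0.19 (adjusted p = 0.00021). Reads of Bcl2a1b can be shared with its near-identical copies, so its level is uncertain. The calls of Bid and Bcl2a1b held in every alternative. Apoptosis genes had 2 higher and 1 lower without animal 2.

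**Figure D4:**
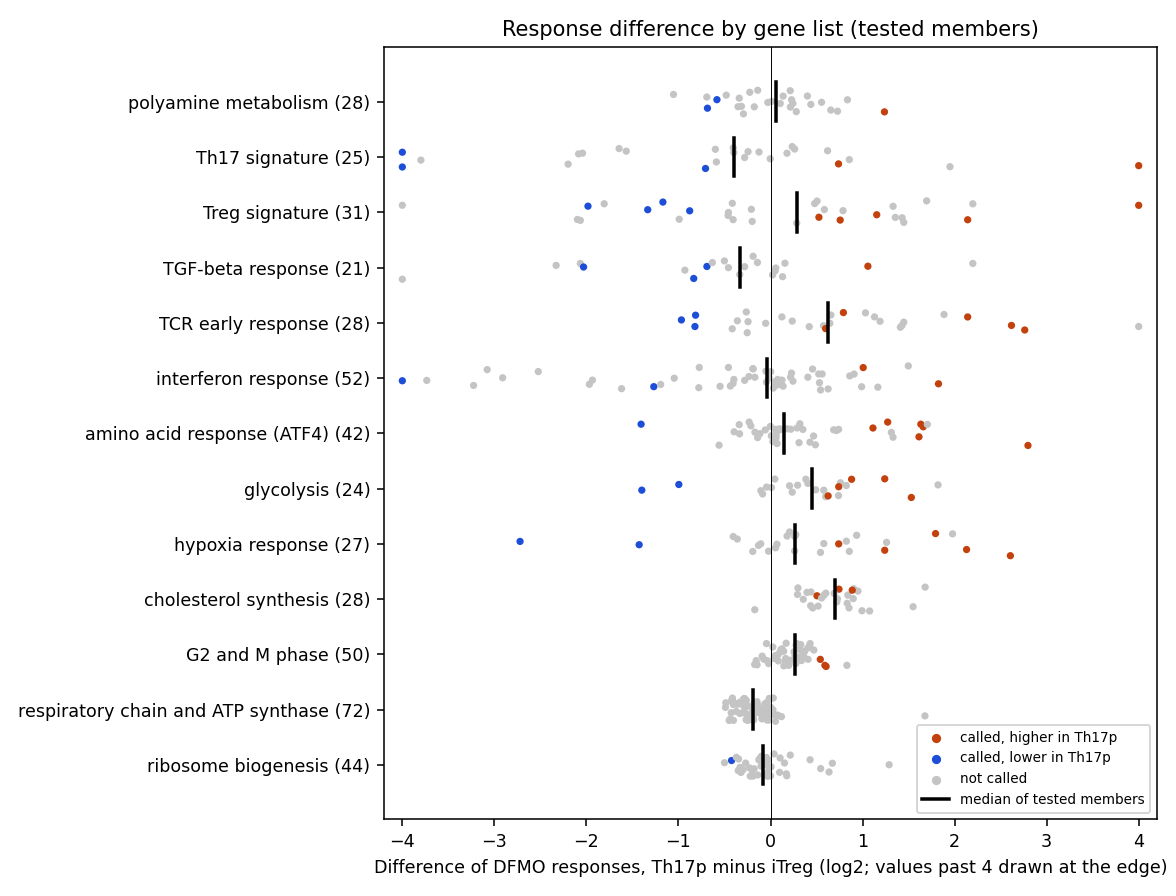
Each point is a tested member of a gene list, placed by its response difference, Th17p minus iTreg, on the log2 scale, with called members in orange (higher) or blue (lower) and a black bar at the median. The number of tested members stands after each name, and the median is farthest right for cholesterol synthesis, at 0.71, and the T cell receptor response, at 0.62.

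The response differences changed how far apart the lineages stood. Over all genes, 3864 differed between Th17p and iTreg cells with DFMO (33.5%), and 3477 with vehicle (30.2%). Of the 789 genes, 294 (37.3%) differed between the lineages with DFMO and not with vehicle, and 205 (26.0%) with vehicle and not with DFMO. In 153 (19.4%) the gap had the same direction in both and was wider with DFMO, in 70 (8.87%) it was narrower, and in 58 (7.35%) it turned round. Gpr65 is an example of a gap (log2, Th17p over iTreg) that widened, at 4.22 with DFMO, against 2.48 with vehicle. Trat1 is one that turned, at 1.84 with DFMO, against -1.68 with vehicle. These classes restate the same 12 libraries and add no separate evidence.

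Th17n cells, which received TGF-beta like iTreg cells and IL-6 like Th17p cells, had responses between those of the 2 lineages in 554 of the 789 genes (70.2%), and closer to the response of Th17p cells in 531 (67.3%). For the 383 genes called higher, the median DFMO responses were 0.21 for Th17p, -0.18 for Th17n and -0.77 for iTreg cells. For the 406 genes called lower, they were -0.49, -0.17 and 0.47. Odc1 is an example of the middle position, with a DFMO response of 0.67 for Th17p, 0.20 for Th17n and -0.57 for iTreg cells. The genes were chosen for unlike responses in the outer lineages, which favours a middle position of Th17n cells. These shares and medians are therefore a description, and no share over all genes was taken. Tested on their own, the responses of Th17n and iTreg cells differed in 1396 genes (12.1%), and those of Th17p and Th17n cells in 574 (4.98%).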

How the data were processed

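Per the labels, RNA of 18 libraries from 3 mice was sequenced as paired reads of 75 bases in 2 runs. Per the submitters' processing notes, the tools were Bowtie2 and RSEM and the build GRCm38.p3. Library strand, annotation and versions are not given in the sources used, so reads of overlapping genes on opposite strands may not be told apart. The deposited table of expected counts (RSEM estimates per gene and run, 20817 symbols, 12.2% of values not whole) was used for all main results. The authors' second table holds TPM (scaled for length and depth) and served an alternative. Every column of both tables was matched to a sample. The listed genes held 73.9% to 79.9% of the TPM scale on average per group.

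The 2 runs of a library were close to counting error (chi-square per degree of freedom 1.15 to 1.54, against 3.64 to 12.1 between animals of a group, over genes with at least 20 counts), so estimated counts were summed and rounded. Depth was 8307633 to 13986923 per library, and these counts carry no molecular identifiers, so floors cover counting error only. Genes were tested in edgeR 4.0.16 under R 4.3.3. All 18 libraries entered 1 quasi-likelihood fit (robust), with group means, TMM factors and filterByExpr, and two-sided p values were adjusted by Benjamini-Hochberg over 11526 genes. The scripts were tested on simulated data. Alternatives were the animal as a block, the 12 libraries alone, RLE or no scaling factors, no filter or a mean log2 CPM of at least 2, DESeq2 1.42.0, limma 3.58.1 on log2(TPM + 1) for genes with a mean TPM of at least 1, each run alone, and each animal left out.

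Libraries carry the animal's number in the labels, and those of 1 animal deviated together from their group means (median r 0.20 for the 45 same-animal pairs and -0.10 for the 90 pairs that differed in animal and group), so the numbers pair the libraries by animal. Named genes are the 15 highest and 15 lowest called response differences (mean log2 CPM of at least 2, at least 10 counts in each group, the same sign in 3 animals, leaving aside predicted, histone and antigen receptor genes), the polyamine list, 21 genes whatever their result, and up to 4 called members per list by smallest p. Some of them are not reported here. The comparison, the lists and the rule were chosen with earlier results of these data known, so counts within lists are descriptions and no set test was run. Symbols were matched to GENCODE M21, which gave 20079 of 20817 genes.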

Additional observations from a re-analysis of the deposited data

Results flagged for a closer look

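The 30 genes below were singled out because the effect of the same inhibitor differed between the lineages, by a test of that difference itself (edgeR, adjusted p under 0.05). Values are response differences, Th17p minus iTreg, on the log2 scale, with the same sign in 3 of 3 animals, and no explanation was tested.

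On the higher side, the values were 4.62 for Gzmb, 4.61 for Tgm2, 3.95 for Il23a, 3.88 for Ntrk3, 3.52 for Trat1, 2.89 for Ccrl2, 2.88 for Anxa2 and 2.80 for Atf3. They were 2.76 for Nr4a2, 2.76 for Sdc1, 2.68 for Asph, 2.66 for Sfmbt2, 2.62 for Fos, 2.61 for P4ha2 and 2.56 for Trim16. Of these 15, Il23a, Ntrk3 and Trat1 kept the call when each animal was left out in turn.

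On the lower side, the values were -6.17 for Timp1, -5.58 for Il17f, -5.07 for Aqp3, -4.197 for Il24, -4.13 for Crispld2, -3.87 for Ctsw, -3.64 for Cd86 and -3.495 for Il1rn. They were -3.44 for Gatm, -3.36 for Epha2, -3.20 for Cyp11a1, -3.15 for Ecm1, -3.14 for Cxcr5, -3.01 for Ctla2a and -2.90 for Mgll. Of these 15, Il17f, Crispld2, Gatm, Cyp11a1, Cxcr5 and Mgll kept the call when each animal was left out in turn.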

How the results depend on the processing

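None of the 112 called named genes reversed under any of the 13 alternatives, and 19 kept the call under all of them. The absence of reversals was close to fixed in advance and is no test of the directions. The highest and lowest named genes were chosen for the same sign in every animal, and 787 of the 789 called genes had it. Leaving out an animal could therefore hardly reverse them, and the other alternatives reuse the same libraries. The 12 libraries alone called 577 genes, RLE factors 791, no filter 721, a higher filter 805, and the runs alone 684 and 686. Libraries of 1 animal resembled each other, and with the animal as a block 637 genes were called higher and 600 lower, 211 of them changed in both lineages the same way and 384 in Th17p cells alone. The block changed the call of 7 named genes, Ifit3 (lost) and Tbx21, Ikzf2, Stat3, Oaz2, Azin1 and Aldh18a1 (gained). Without scaling factors 678 genes were called higher and 261 lower, and 1284 rose in iTreg cells. On log2(TPM + 1) the counts were 970 and 237, with 963 rising in iTreg cells and 573 of the called genes changed in iTreg cells alone. The median response difference of all genes was 0.15 without scaling and 0.23 on TPM, against 0.02, so directions of small differences are relative to that shift. DESeq2 called 614 lower and 500 higher.

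Leaving out each animal in turn gave 40 to 288 genes called higher and 67 to 276 called lower, the lowest without animal 2. Genes that rose numbered 1119 to 1233 in Th17p and 1211 to 1886 in iTreg cells, and genes that fell 1297 to 1399 and 1277 to 1757. Opposite directions held for 29 to 75 genes, the same direction for 8 to 78, Th17p alone for 36 to 166 and iTreg alone for 34 to 237. These fits have 2 animals per group, and the cause of the lower count without animal 2 was not tested. Depth limits genes with few counts in a lineage, since 21 called genes had 3 or fewer counts in at least 1 group.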

Other observations

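Further lists were called in both directions. Of 24 tested targets of STAT3 and STAT5, 1 was called higher and 3 lower (16.7%). STAT targets had 1 higher and 1 lower with no scaling, 1 and 1 on log2(TPM + 1), 0 and 0 without animal 2, and 1 and 1 without animal 3. Il4ra, the IL-4 receptor, and Ccnd2, cyclin D2, were called lower, at -0.54 ± 0.13 (adjusted p = 0.0175) and -0.52 ± 0.14 (adjusted p = 0.0277). Without animal 2 the adjusted p was 0.164 for Il4ra and 0.257 for Ccnd2. For the fit lacking animal 3, the adjusted p was 0.0761 for Il4ra and 0.156 for Ccnd2. Il4ra had an adjusted p of 0.0538 with no scaling and 0.199 on log2(TPM + 1) (response difference -0.29). Ccnd2 had an adjusted p of 0.0661 with no scaling and 0.237 on log2(TPM + 1) (response difference -0.27). Of 14 tested co-inhibitory receptors, 1 was called higher and 2 lower (21.4%). Co-inhibitory receptors had 3 higher and 2 lower with the animal as a block, 3 and 2 with no scaling, 2 and 3 on log2(TPM + 1), 1 and 0 without animal 1, and 0 and 0 without animal 2. Pdpn, podoplanin, had 1.68, 1.13 and 1.36 CPM in Th17p cells with DFMO, 1.87, 11.6 and 4.13 CPM in Th17p cells with vehicle, 10.1, 11.7 and 2.97 CPM in iTreg cells with DFMO and 0.323, 1.75 and 1.01 CPM in iTreg cells with vehicle, and a response difference of -5.02 ± 0.98 (adjusted p = 0.00917). Pdpn had an adjusted p of 0.0792 without animal 1, 0.129 without animal 2 and 0.0624 without animal 3. Of 35 tested cytokines and chemokines, 1 was called higher and 4 lower (14.3%). Cytokines and chemokines had 0 higher and 2 lower without animal 1, and 0 and 1 without animal 2. Lta, lymphotoxin alpha, had 494, 378 and 443 CPM in Th17p cells with DFMO, 180.4, 158 and 181 CPM in Th17p cells with vehicle, 722, 839 and 1005 CPM in iTreg cells with DFMO and 461, 531 and 555 CPM in iTreg cells with vehicle. It rose in both lineages, and its response difference was 0.61 ± 0.16 (adjusted p = 0.0241). Lta had an adjusted p of 0.0857 without animal 1 and 0.181 without animal 2.

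T cell identity genes were called higher for 1 and lower for 3 of 11 (36.4%). The identity list had 0 higher and 2 lower with the 12 libraries alone, 0 and 0 without animal 1, 0 and 1 without animal 2, and 0 and 2 without animal 3. Cd3e, a chain of the CD3 complex, had 180.5, 159 and 179.8 CPM in Th17p cells with DFMO, 170.3, 154 and 162 CPM in Th17p cells with vehicle, 247, 254 and 202 CPM in iTreg cells with DFMO and 152, 142 and 140.4 CPM in iTreg cells with vehicle, and a response difference of -0.60 ± 0.13 (adjusted p = 0.00547). Thy1, a surface glycoprotein of T cells, had 74.1, 60.8 and 87.2 CPM in Th17p cells with DFMO, 139, 144 and 117 CPM in Th17p cells with vehicle, 267, 225 and 285 CPM in iTreg cells with DFMO and 237, 245 and 262 CPM in iTreg cells with vehicle, and a response difference of -0.92 ± 0.16 (adjusted p = 0.00131). With animal 1 left out, the adjusted p was 0.0586 for Cd3e and 0.0797 for Thy1. Leaving out animal 2 gave an adjusted p of 0.2 for Cd3e. Cd3e had an adjusted p of 0.0517 on log2(TPM + 1) (response difference -0.36). Trp53, the gene of p53, rose by 0.65 in iTreg cells, while its response in Th17p cells was 0.09 ± 0.07 (adjusted p = 0.365), and its response difference was -0.56 ± 0.10 (adjusted p = 0.002). Trp53 had an adjusted p of 0.136 without animal 2. Trp53 had an adjusted p of 0.0938 on log2(TPM + 1) (response difference -0.32). Cd74, the invariant chain, had 7.26, 6.99 and 6.38 CPM in Th17p cells with DFMO, 14.1, 11.9 and 10.8 CPM in Th17p cells with vehicle, 20.5, 20.9 and 20.4 CPM in iTreg cells with DFMO and 59.1, 94.8 and 91.8 CPM in iTreg cells with vehicle, and a response difference of 1.16 ± 0.24 (adjusted p = 0.00497). Cd74 had an adjusted p of 0.197 without animal 2 and 0.0738 without animal 3. Of the other markers, Cd79b of B cells and Cd68 of myeloid cells were called lower, at -2.31 ± 0.55 (adjusted p = 0.0126) and -2.77 ± 0.82 (adjusted p = 0.0447), with means in Th17p cells with vehicle of 1.74 ± 0.636 and 4.002 ± 1.75 CPM. Removing animal 1 gave an adjusted p of 0.106 for Cd79b and 0.212 for Cd68. When animal 2 was left out, the adjusted p was 0.125 for Cd79b and 0.204 for Cd68. Dropping animal 3 gave an adjusted p of 0.0569 for Cd79b and 0.178 for Cd68. Cd79b had an adjusted p of 0.057 on log2(TPM + 1) (response difference -0.96) and 0.147 with run 2 alone. Cd68 had an adjusted p of 0.0699 with the 12 libraries alone, 0.0511 with no scaling, 0.0592 without the filter, 0.177 with run 1 alone and 0.0817 with run 2 alone. Prf1 of CD8 T cells had 14 and 81 counts in Th17p cells with DFMO and with vehicle and 18 and 2 in iTreg cells, the last below the floor of 3, so no response difference is given. Of NK and of erythroid markers 1 member each was tested and not called.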
